A study of Mus musculus with 2 samples.

Results

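The genes described are 48 cell cycle genes, 23 of S phase and 25 of G2/M, of the 32245 gene columns of a single-cell RNA-seq series on mouse knee joints. They come from the lists in common use for scoring the phase of single cells. They were followed in the cells outside the red blood cell lineage, taken as the cells in which Hbb-bs, Hbb-bt, Hba-a1 and Hba-a2, which encode the adult globins, were all at 0. These were 1190 of 4903 control cells and 1227 of 1340 Stat3 deleted cells. A globin value does not by itself place a cell in that lineage, so the rule also left out other cells, mostly of the control library. The study compared Stat3fl/fl control females with Acan-Cre+/Cre;Stat3fl/fl females at 1 month of age, and both genotypes carried the floxed alleles. Acan drives the tamoxifen-dependent Cre recombinase in chondrocytes, so that classes of other cells in the same joint were not the target of the deletion. The study states, however, that growth plate chondrocytes can turn into osteoprogenitors. Whether cells of other classes carried the deletion was not tested. Knees of several mice of a genotype were pooled, and live cells without the surface markers CD31, Ter119 and CD45 were sorted into 1 library per genotype. With 1 library per genotype no test between genotypes was possible. Every difference below describes these 2 libraries, and intervals cover counting error only.

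A dividing cell copies its DNA in S phase, passes through G2 and separates its chromosomes in mitosis. S genes encode the replicative helicase, DNA polymerase partners, nucleotide synthesis enzymes and histone chaperones. They are induced by E2F factors as a cell leaves G1. G2/M genes encode cyclin B and its kinase, the spindle, the kinetochore and the ubiquitin ligase that ends mitosis, and are switched on later, through promoters bound by the DREAM and MMB complexes at a short element known as CHR. In the growth plate, columns of flattened chondrocytes divide before they enlarge, whereas cells of the articular surface divide rarely by this age. Erythroblasts divide while they fill with globin and are a dense source of these transcripts in bone.

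Promoters of the genes that the comparisons turn on are shown because S and G2/M genes are known to be switched on through different promoter elements. The 150 bases before the first listed RefSeq start are given 5′ to 3′ on GRCm38.p6. Capitals mark the CHR letters TTTGAA, the CCAAT box CCAAT and the E2F letters TTTGGCGC, TTTCGCGC or TTTCCCGC, each on either strand. They lie at chr7:135716380-135716529, minus strand (Mki67), chr11:99024190-99024339, minus strand (Top2a), chr9:70421555-70421704, minus strand (Ccnb2), chr4:118437344-118437493, minus strand (Cdc20), chr1:128359706-128359855, minus strand (Mcm6), chr1:191575545-191575694, minus strand (Dtl) and chr2:132253181-132253330, minus strand (Pcna).
Mki67: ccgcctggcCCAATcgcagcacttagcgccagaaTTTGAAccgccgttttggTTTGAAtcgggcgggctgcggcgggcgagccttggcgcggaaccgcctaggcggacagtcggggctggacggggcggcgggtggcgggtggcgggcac
Top2a: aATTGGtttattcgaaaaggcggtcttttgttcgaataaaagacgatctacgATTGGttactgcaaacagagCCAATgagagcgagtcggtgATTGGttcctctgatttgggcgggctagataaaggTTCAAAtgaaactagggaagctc
Ccnb2: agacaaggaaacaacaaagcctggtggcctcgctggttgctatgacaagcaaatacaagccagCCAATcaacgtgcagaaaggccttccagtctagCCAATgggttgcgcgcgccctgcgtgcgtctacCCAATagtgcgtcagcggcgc
Cdc20: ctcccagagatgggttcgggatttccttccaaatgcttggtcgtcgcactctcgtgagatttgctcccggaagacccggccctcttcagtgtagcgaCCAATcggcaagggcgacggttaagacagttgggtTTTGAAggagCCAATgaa
Mcm6: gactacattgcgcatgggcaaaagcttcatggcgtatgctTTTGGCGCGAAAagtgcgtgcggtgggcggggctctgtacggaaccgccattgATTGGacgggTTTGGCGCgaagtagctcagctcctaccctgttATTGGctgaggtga
Dtl: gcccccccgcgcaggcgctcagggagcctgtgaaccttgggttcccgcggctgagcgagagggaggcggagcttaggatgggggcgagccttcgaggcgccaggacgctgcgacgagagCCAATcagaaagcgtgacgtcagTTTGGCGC
Pcna: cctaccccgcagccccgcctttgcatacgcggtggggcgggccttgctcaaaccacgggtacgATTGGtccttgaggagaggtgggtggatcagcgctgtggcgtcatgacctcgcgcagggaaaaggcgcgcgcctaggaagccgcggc

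In these 150 bases Mki67 held the CHR letters at 2 places, Top2a and Cdc20 held them once, and all 3 also held CCAAT boxes. Ccnb2 held CCAAT boxes without CHR letters, which in its promoter lay outside the stretch shown. Mcm6 and Dtl held both E2F letters and CCAAT boxes, and Pcna a single CCAAT box. Promoters of 18 S and 22 G2/M genes were listed, and Mcm4, Gins2, Rfc2, Gmnn, Ccne2, Tpx2, Smc4 and Aurkb were not matched. In the full window, 250 bases before to 50 after the start, the CHR letters were found in 15 of 22 G2/M promoters (68.2%), 4 of 18 S promoters (22.2%) and 18.1% of all 27025 promoters. E2F letters were found in 1 G2/M promoter (4.55%), 6 S promoters (33.3%) and 1.91% of all promoters. The CCAAT box was found in 13 of 18 S promoters and 16 of 22 G2/M promoters, against 37.9% of all promoters. A match of letters is a description and does not show a bound site.

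The libraries differed in ways that bear on these genes. Sox9+Col2a1+ cells without globin, the chondrocytes that the authors selected, numbered 501 in the control and 332 in the Stat3 deleted library, with median depths of 5876 and 8595 estimated unique molecular identifiers (UMIs) per cell. With up to 2 globin UMIs allowed, Sox9+Col2a1+ cells numbered 925 and 335, so the globin rule left out many more of them in the control. Stat3 itself, the deleted gene, was at 142 and 103 counts of 1000000 (CPM) in control and Stat3 deleted cells, a log2 ratio of -0.45. The place of the loxP sites was not used here, and tags from the 3′ end need not lie in the deleted part, so this level does not check the deletion. Sox9 was at 910 and 973 CPM, and Col2a1 at 44125 and 31546 CPM. Median mitochondrial shares of these cells were 2.38% and 3.29%. The libraries shared 2 cell barcodes. The authors had removed ambient RNA, and the UMIs recovered from the values were not all whole. In control Sox9+Col2a1+ cells 16.1% of the G2/M values above 0 and 14.5% of the S values were under 0.5 estimated UMI, against 0.516% over all genes, and in Stat3 deleted cells none of 516 G2/M and 792 S values were. The main shares of cells are therefore also given with at least 0.5 UMI required, and with each cell thinned to 2000 whole UMIs.

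A cell was called G2/M-positive if at least 3 of the 25 G2/M genes were above 0. Among Sox9+Col2a1+ cells 139 of 501 control cells were G2/M-positive (27.7%, 95% interval 23.9 to 31.9%) and 62 of 332 Stat3 deleted cells (18.7%, 14.6 to 23.3%), a difference of -9.07 points (-14.7 to -3.19). With at least 0.5 UMI required, the shares were 19.4% (97 cells, 16.0 to 23.1%) and 18.7% (62 cells), and the difference was -0.69 points (-6.00 to 4.88). The Stat3 deleted cells of this set held more UMIs per cell, however, with medians of 8595 against 5876. Over all cells of a library the order was the reverse, at 3743 against 4344. At 2000 UMIs per cell, which left out 34 control and 32 Stat3 deleted cells, 37 of 467 control cells (7.92%, 5.64 to 10.8%) and 8 of 300 Stat3 deleted cells (2.67%, 1.16 to 5.19%) were G2/M-positive, a difference of -5.26 points (-8.35 to -1.97). G2/M-positive cells were lower in the Stat3 deleted library at matched depth, whereas at deposited depth the size of the difference over all 25 genes depended on values under 0.5 UMI.

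The count of 3 genes did not separate a distinct population. The number of G2/M genes per Sox9+Col2a1+ cell fell off smoothly, from 154 control cells with 1 gene to 66 with 3 and 10 with 5, and was followed by a thin tail up to 21 genes in the control and 14 in the Stat3 deleted library. Cells of that tail, with 10 or more G2/M genes, numbered 21 in the control (4.19%, 2.61 to 6.34%) and 5 in the Stat3 deleted library (1.51%, 0.491 to 3.48%). With at least 0.5 UMI required they numbered 18 and 5. They also held a median of 14 of 29 further G2/M genes that the rule did not use, in both libraries, against 3 in cells with 0 to 2 members. Their median depth was 9156 UMIs (control) and 15176 UMIs (Stat3 deleted), against 5635 and 7955 in cells with 0 to 2.

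**Figure D1:**
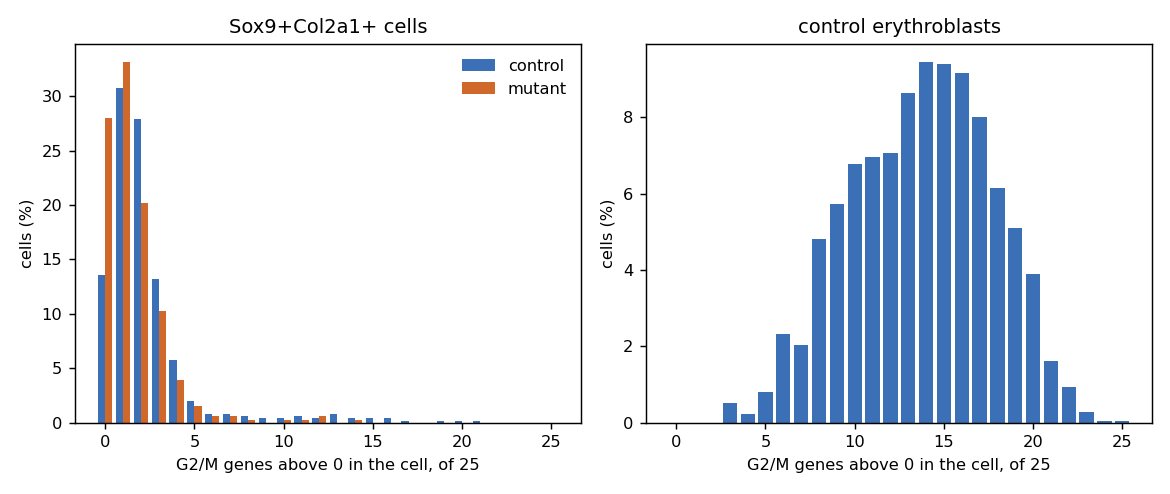
Share of cells (vertical axis, %) by the number of the 25 G2/M genes above 0 in the cell (horizontal axis), for Sox9+Col2a1+ cells of both libraries on the left and control erythroblasts on the right. Most Sox9+Col2a1+ cells held 0 to 2 of the genes with a thin tail of 10 or more, whereas the erythroblasts centred on a median of 14.

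Cells that reached 3 G2/M genes often did so through genes that are also expressed outside the cycle. Hmgb2, a DNA-bending chromatin protein, was above 0 in 72 of the 95 control cells with 3 to 4 G2/M genes, and Smc4, a condensin subunit, in 52. Mki67, the proliferation antigen that coats mitotic chromosomes, was above 0 in 14 of those 95 cells and in 19 of the 21 cells with 10 or more. In the Stat3 deleted library Mki67 was found in 3 of 47 cells with 3 to 4 genes and in 4 of 5 with 10 or more. When Hmgb2, Smc4, the kinase subunits Cks1b and Cks2 and the spindle genes Ckap2 and Tacc3 were not counted, 50 control cells (9.98%, 7.50 to 12.9%) and 7 Stat3 deleted cells (2.11%, 0.852 to 4.30%) held 3 of the others, a difference of -7.87 points. With at least 0.5 UMI also required these were 41 and 7 cells, a difference of -6.08 points (-9.01 to -3.05).

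The S genes were counted in the same way. At least 3 of the 23 S genes were above 0 in 200 control (39.9%) and 142 Stat3 deleted (42.8%) Sox9+Col2a1+ cells, a difference of 2.85 points (-3.94 to 9.67). At 2000 UMIs per cell the counts were 22 of 467 (4.71%) and 13 of 300 (4.33%), a difference of -0.38 points (-3.30 to 2.96). Both groups were present together, with at least 3 genes each, in 67 control and 39 Stat3 deleted cells.

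**Figure D2:**
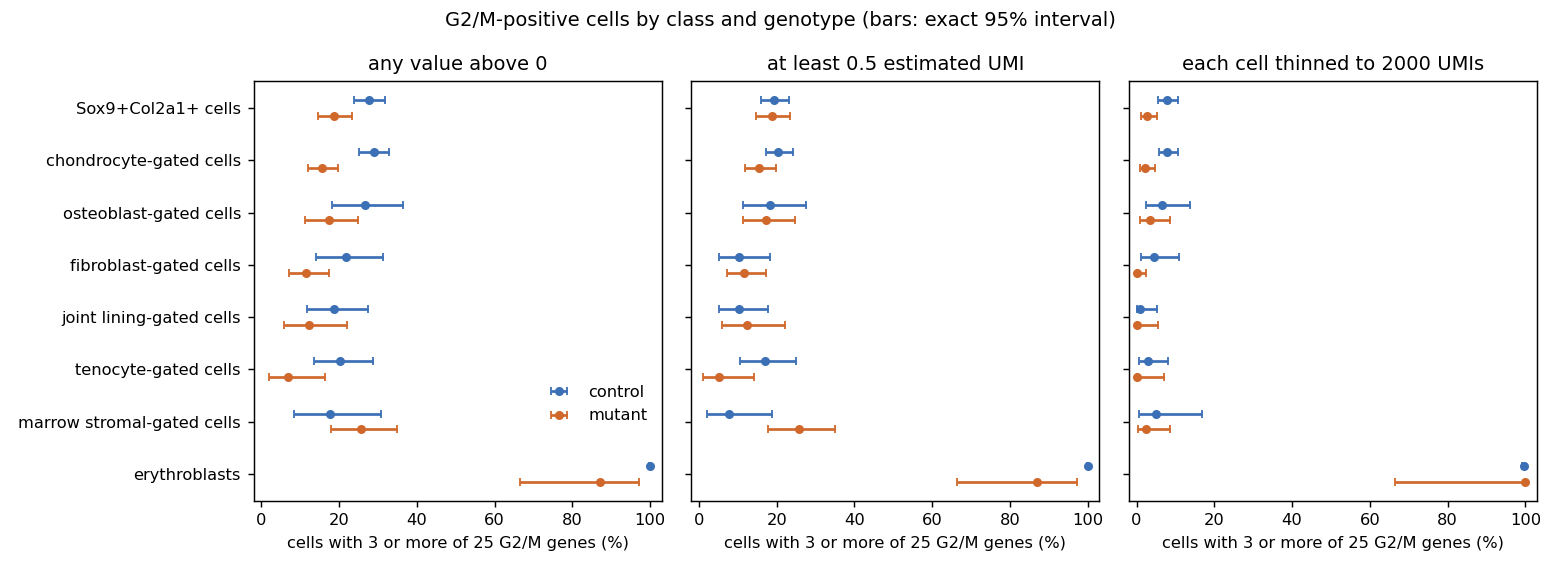
Share of cells with at least 3 of the 25 G2/M genes (horizontal axis, %) by class, for the control (blue) and Stat3 deleted (orange, labelled mutant) library, counting any value above 0, at least 0.5 estimated UMI, or after thinning to 2000 UMIs. Points are shares and bars exact 95% intervals. The Sox9+Col2a1+ shares of 27.7% and 18.7% on the left came to 19.4% and 18.7% in the middle and 7.92% and 2.67% on the right, while all control erythroblasts stood near 100%.

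Levels of the single genes were compared in the summed Sox9+Col2a1+ cells, as the log2 ratio of Stat3 deleted over control with 1 CPM added. Of the 9527 genes with a mean of at least 5 CPM, 6.61% were at least 2-fold lower and 4.59% at least 2-fold higher in the Stat3 deleted library, with a median of -0.17. Of the 25 G2/M genes 15 were at least 2-fold lower and none 2-fold higher on this scale, with a median over all 25 of -1.33, and 23 lay below 0. The count was 14 and the median -1.27 when genes with no value were set at a floor of 3 UMIs over the group, since Aurkb, on which the first median lay, was then only at least 1.55-fold lower. Of the 23 S genes 1 was at least 2-fold lower and none higher, with a median of -0.43, and 8 lay above 0. The background was counted over genes that passed the level minimum. Of the 17 G2/M genes that passed it 9 were at least 2-fold lower (median -1.10), and of the 16 S genes none was (median -0.28). Since 6 of those 17 passed with only the control above it, and so had to be lower, this count is a description. Summed over the group, G2/M genes came to 641 and 339 CPM in control and Stat3 deleted cells, and S genes to 357 and 408 CPM. When each cell was thinned to 2000 UMIs the medians lay closer together, at -0.85 for S and -1.18 for G2/M genes, and 24 members were at least 2-fold lower rather than 16. The share of all genes past 2-fold is not given at that depth, so the rise from 16 to 24 does not show a larger difference.

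Among genes of chromosome structure, Mki67 was at 51.2 CPM (control) and 10.7 CPM (Stat3 deleted; log2 ratio -2.16), and was above 0 in 62 cells (12.4%, 9.62 to 15.6%) and 12 cells (3.61%, 1.88 to 6.23%). Top2a, the topoisomerase that untangles sister chromatids, was at 27.5 and 15.1 CPM (-0.82). It was above 0 in 60 and 15 cells, but in 27 and 15 with at least 0.5 UMI required. Hmgb2 was at 247 and 141 CPM (-0.81) and Smc4 at 82.6 and 60.3 CPM (-0.45). All 4 genes of this role were lower in the Stat3 deleted cells, Mki67 at least 2-fold.

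The median ratio was -1.69 for the 4 kinetochore genes and -1.50 for the 7 spindle genes. Cenpf, a large protein of the kinetochore, was at 33.7 and 5.31 CPM (-2.46) and was found in 46 and 7 cells. Tpx2, which activates Aurora A on spindle microtubules, was at 23.7 and 4.81 CPM (-2.09). Birc5, the survivin subunit of the chromosomal passenger complex, was at 15.8 and 4.46 CPM (-1.62), and Tacc3, a microtubule clamp at the spindle, at 12.7 and 6.07 CPM (-0.95). Of 4 kinetochore genes 3 were at least 2-fold lower, with Ndc80 at 8.26 and 8.73 CPM the exception, and of 7 spindle genes 4 were.

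Genes of the mitotic kinases and of protein degradation differed among themselves. Ccnb2, the cyclin B2 partner of Cdk1, was at 19.3 and 5.16 CPM (-1.72), in 51 and 8 cells. Cdk1 itself was low, at 3.09 and 2.90 CPM in 14 and 6 cells. Cks1b was at 17.5 and 16.9 CPM (-0.05), and Cks2 was higher in the Stat3 deleted cells, at 24.3 and 36.6 CPM (0.57). The degradation genes Cdca3 (16.0 and 5.51 CPM), Cdc20 (11.3 and 3.20 CPM) and Ube2c (8.55 and 3.47 CPM) were all at least 2-fold lower, at -1.38, -1.55 and -1.10. Aurkb, Ttk, Kif2c and Gtse1 had no value in the Stat3 deleted cells. Against 3 UMIs over that group, Kif2c was at least 3.09-fold, Ttk at least 2.35-fold and Aurkb at least 1.55-fold lower, and Gtse1, found in 1 control cell, was under that floor.

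S genes lay on both sides of 0 in the roles of DNA synthesis, histone supply and the helicase. Pcna, the sliding clamp of DNA polymerase, had the highest ratio of all members with a mean of at least 5 CPM, at 34.3 and 63.7 CPM (0.88), and was found in 115 and 126 cells. Mcm6 was at 13.8 and 24.2 CPM (0.76), whereas Mcm4, another subunit of the same helicase, was at 22.3 and 13.3 CPM (-0.71) and Mcm5 at 6.16 and 5.69 CPM (-0.10). The histone chaperone Nasp was at 99.7 and 130 CPM (0.38) and Slbp, which binds the stem-loop of histone mRNA, at 49.3 and 75.0 CPM (0.60). Rrm1 and Rrm2, the ribonucleotide reductase subunits, were at 21.3 and 15.1 CPM (-0.47) and at 8.54 and 5.94 CPM (-0.46). Rfc2, of the clamp loader, was at 15.1 and 11.0 CPM (-0.43), and Ccne2, cyclin E2, at 8.66 and 9.87 CPM (0.17). Cdc45 (0.547 and 1.61 CPM) and Mcm2 (4.14 and 2.51 CPM) were, with Gtse1, the members found in fewest G2/M-positive cells. The S gene that was 2-fold lower was Cdc6, which loads the helicase, with a log2 ratio of -1.25, and no S gene with a mean of at least 5 CPM passed 2-fold on the log2(CPM + 1) scale. Dtl, an adaptor of a ubiquitin ligase, lay just inside it at 13.4 and 6.26 CPM (-0.99), and in chondrocyte-gated cells just outside (-1.11).

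**Figure D3:**
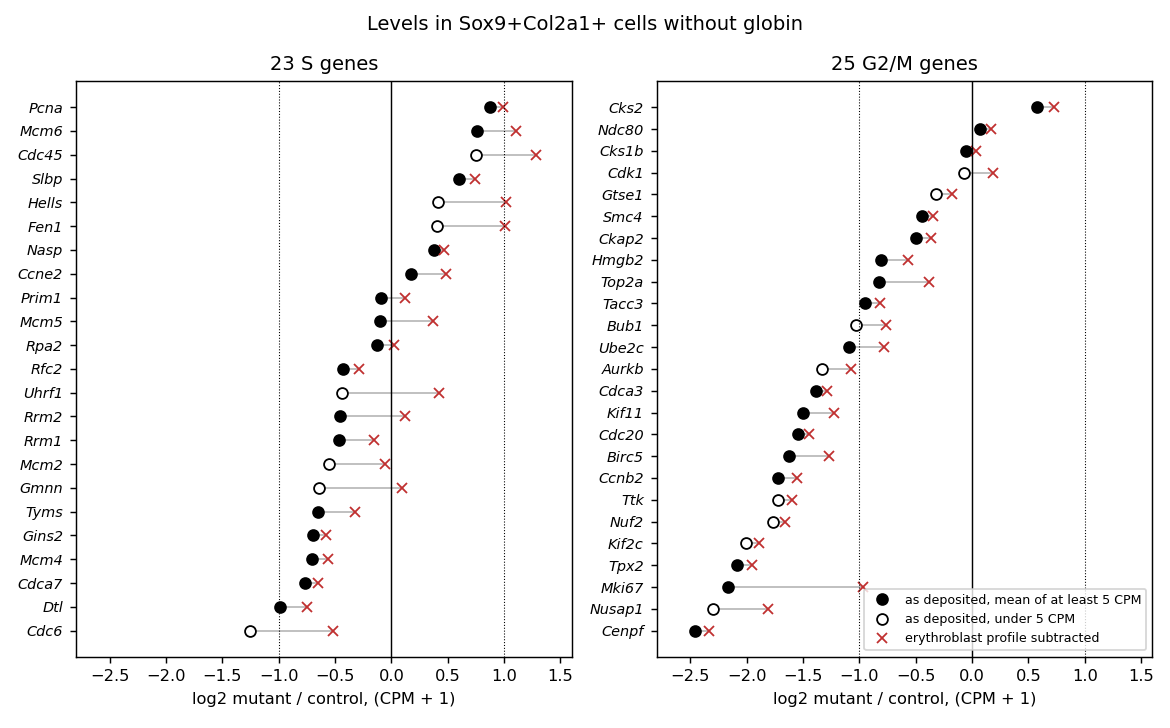
Log2 ratio of Stat3 deleted over control (horizontal axis, CPM + 1) of each S gene (left) and G2/M gene (right) in Sox9+Col2a1+ cells. Filled and open circles are values as deposited with a mean of at least or under 5 CPM, crosses are values after subtraction of the scaled control erythroblast profile, and dotted lines mark 2-fold. Cenpf stood at -2.46 and Cks2 at 0.57, and Mki67 moved from -2.16 to -0.97 on subtraction.

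The 21 control cells with 10 or more G2/M genes held 73.1% of all Mki67 UMIs of the 501 cells, 68.1% of Top2a, 74.4% of Cenpf, 81.9% of Tpx2 and 52.4% of Ccnb2, but 42.8% of Hmgb2 and 26.1% of Smc4. In the Stat3 deleted library 5 cells held 60.7% of Mki67, 52.4% of Top2a, 73.2% of Cenpf, 33.2% of Tpx2 and 37.5% of Ccnb2, and 7.82% of Hmgb2 and 12.9% of Smc4. For the S genes the 21 control cells held 20.9% of Pcna, 9.91% of Nasp and 9.64% of Slbp. The cells were chosen by the G2/M genes themselves, so for those genes the shares describe the choice and are no finding.

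Other cell cycle genes outside the 48 were read in the same cells, where 6.61% of all genes tested were at least 2-fold lower and 4.59% at least 2-fold higher. Of 29 further G2/M genes 17 were at least 2-fold lower and none higher (median -1.16), and of the 20 that passed the level minimum 8 were (median -0.72), with 5 of the 20 passing through the control alone. Among the 17 were Cenpe, a kinetochore motor (18.5 and 3.51 CPM), Cdca8, a passenger complex subunit (17.6 and 2.88 CPM) and Anln, a scaffold of the cleavage furrow (16.3 and 1.92 CPM). Of 20 further S genes 5 were at least 2-fold lower and none higher (median -0.52), and of the 11 that passed 2 were (median -0.34). Of 22 genes of G1 and of cycle inhibition 2 were lower, the G1 kinase Cdk6 (71.6 and 24.4 CPM, -1.52) and Rbl1 (6.75 and 1.91 CPM, -1.41), and 1 was higher. That was Cdkn1a, which encodes the kinase inhibitor p21, at 301 and 634 CPM (1.07), found in 303 of 501 and 246 of 332 cells. The cyclins Ccnd1 (159 and 116 CPM) and Ccnd2 (204 and 155 CPM) differed by less than 2-fold. The counts of 2 lower and 1 higher among these 22 genes lay near the shares over all genes and are no finding about the group.

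In each library, most articular surface genes were lower in the chondrocytes that held many G2/M genes, and most growth cartilage genes stood somewhat higher. Cells with 5 or more G2/M genes, 44 in the control and 15 in the Stat3 deleted library, were set against the 362 and 270 cells with 0 to 2, by genes that the rule did not use. Of 8 growth cartilage genes 7 were higher in the G2/M-rich cells of either library, with medians of 0.35 (control) and 0.64 (Stat3 deleted). Of all genes with a mean of at least 5 CPM in these cells 51.9% were higher and 48.1% lower in the control, and 52.9% and 47.1% in the Stat3 deleted library, with medians of 0.03 and 0.05. Higher or lower here means on either side of 0, and Mia counted as higher in the control at 0.03. Matn1, a matrilin of resting and proliferating cartilage, was at 163 against 70.0 CPM in the control (log2 ratio 1.21) and 137 against 82.7 CPM in the Stat3 deleted library (0.72). Fgfr3, the receptor that restrains growth plate proliferation, was at 328 against 171 CPM (0.94) and 167 against 107 CPM (0.64). Ucma was the exception in both. Of 8 articular surface genes 8 were lower in the control (median -3.14) and 7 in the Stat3 deleted library (-3.41), where Chil1 was higher. Prg4, the lubricin of the joint surface, was above 0 in 5 of 44 against 95 of 362 control cells and in 3 of 15 against 117 of 270 Stat3 deleted cells. Abi3bp, a matrix protein, was in 6 of 44 against 130 of 362, and in 3 of 15 against 99 of 270.

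Of 8 prehypertrophic and hypertrophic genes 8 were higher in G2/M-rich control cells (median 0.89) and 5 in Stat3 deleted cells (0.35). In the control the ratios of Col10a1 (1.68) and Ihh (1.57) rested on 4 and 2 of the 44 G2/M-rich cells. Panx3, a channel of prehypertrophic chondrocytes, was above 0 in 24 of 44 (54.5%) against 55 of 362 (15.2%) control cells and in 9 of 15 (60.0%) against 37 of 270 (13.7%) Stat3 deleted cells. Pth1r, the receptor for parathyroid hormone-related protein, was found in 24 of 44 against 140 of 362 control cells and in 11 of 15 against 97 of 270 Stat3 deleted cells. Col10a1, Mef2c and Runx2 were the 3 genes that were lower in the latter. Stat3 was at 79.6 against 153 CPM in the control, lower in the G2/M-rich cells, and Sox9 at 514 against 984 CPM. In the Stat3 deleted library Stat3 was at 74.7 against 113 CPM and Sox9 at 823 against 1027 CPM (-0.32). Sox9 above 0 was required of every cell, so its level is bound up with depth. The cells compared are of 1 library each and not replicates, and G2/M-rich cells were also deeper. With 15 such cells in the Stat3 deleted library, single cells move the values.

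**Figure D4:**
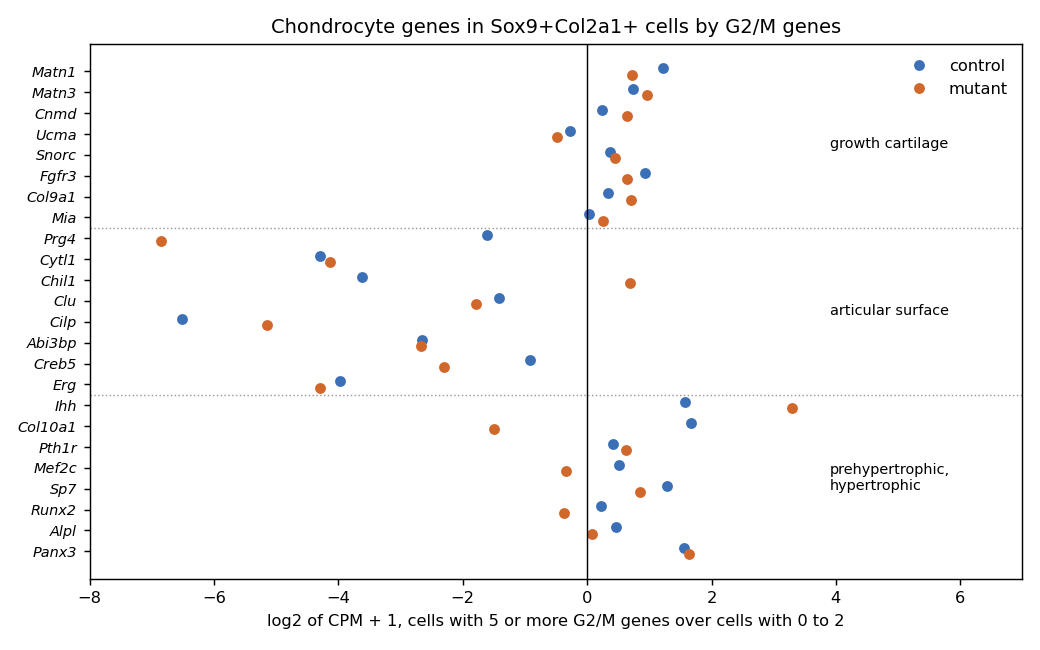
Log2 ratio of the level (CPM + 1) in Sox9+Col2a1+ cells with 5 or more G2/M genes over cells with 0 to 2 (horizontal axis) for chondrocyte genes in 3 zones, in the control (blue) and Stat3 deleted (orange, labelled mutant) library. Matn1 and Panx3 lay to the right in both libraries and Prg4, Cytl1, Cilp and Erg to the left.

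Cells were next gated into classes by at least 3 of 8 markers. In each class with 50 or more cells per library, no other class had more markers than its own among the 10 leading genes. The gates were set by these same markers, so this describes the gates and does not check them. Chondrocyte-gated cells were G2/M-positive in 158 of 548 control (28.8%) and 54 of 348 Stat3 deleted cells (15.5%), a difference of -13.3 points (-18.5 to -7.78). It was -4.92 points (-9.87 to 0.32) with at least 0.5 UMI required and -5.68 points (-8.63 to -2.45) at 2000 UMIs. In these cells 15 of 25 G2/M and 2 of 23 S genes were at least 2-fold lower, against 7.81% of all genes tested. Of those that passed the level minimum 11 of 18 G2/M genes, 7 of them through the control alone, and 1 of 16 S genes were.

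Cells of other joint classes differed between the libraries in a direction that changed with how values were counted. The Acan-driven Cre was not aimed at them, but whether some carried the deletion was not tested. Of 508 control and 591 Stat3 deleted cells of osteoblast, fibroblast, joint lining, tenocyte, marrow stromal, mural and muscle gates, 110 (21.7%) and 93 (15.7%) were G2/M-positive, a difference of -5.92 points (-10.6 to -1.31). It was 1.39 points (-2.87 to 5.58) with at least 0.5 UMI required and -2.91 points (-5.37 to -0.74) at 2000 UMIs, at 20 of 446 and 8 of 508 cells. Sox9+Col2a1+ cells were taken whatever their gate, so some of them can also be among the cells of these classes. Whether the change in Sox9+Col2a1+ cells differed from that in these classes was not tested. No class that should lack these transcripts was at hand as a background. The shares of the fibroblast gate were 21 of 97 (21.6%) and 20 of 173 (11.6%), with median depths of 3742 and 5583 UMIs.

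The single classes were small. Osteoblast-gated cells were G2/M-positive in 26 of 98 and 23 of 133 cells, joint lining-gated cells in 20 of 107 and 9 of 73, and tenocyte-gated cells in 24 of 118 and 4 of 59. Marrow stromal-gated cells went the other way, with 9 of 51 (17.6%) and 28 of 109 (25.7%), a difference of 8.04 points (-6.52 to 20.1). With at least 0.5 UMI required they were 4 of 51 and 28 of 109, a difference of 17.8 points (4.94 to 28.0), although at 2000 UMIs 2 of 40 and 2 of 82 were G2/M-positive. Of the 6 classes compared, the chondrocyte gate among them, 5 were lower in the Stat3 deleted library at any value above 0. With at least 0.5 UMI required 3 were lower, and at 2000 UMIs 6 were. The interval of the difference lay under 0 in 3, 1 and 2 of them. The chondrocyte gate was lower in each count, with its interval under 0 at any value above 0 and at 2000 UMIs. Mural-gated cells (5 of 29 and 9 of 44) were too few to compare, and the muscle gate held 8 control cells, 5 of them G2/M-positive, and none of the Stat3 deleted library.

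Mki67 and Top2a were lower in the Stat3 deleted library in each of the osteoblast, fibroblast, joint lining, tenocyte and marrow stromal gates, whereas Pcna was higher. In osteoblast-gated cells Mki67 was at 68.2 and 12.6 CPM, in 24 and 5 cells. In fibroblast-gated cells it was at 77.8 and 0.616 CPM, in 20 and 1 cells, in tenocyte-gated cells at 36.4 and 0.550 CPM, in 19 and 1 cells, in marrow stromal-gated cells at 155 and 5.37 CPM, in 8 and 2 cells, and in joint lining-gated cells at 34.2 CPM in 5 control cells, with no value in the Stat3 deleted cells. Top2a was at 24.3 and 1.09 CPM in fibroblast-gated, 44.4 and 21.0 CPM in osteoblast-gated and 24.5 and 1.01 CPM in joint lining-gated cells. Over all the other joint classes, 9 of 508 control cells held 10 or more G2/M genes, with 53.5% of the Mki67 and 69.4% of the Top2a UMIs. The fibroblast, joint lining and marrow stromal gates held 1 such cell each, the osteoblast and muscle gates 3 each. Levels of a class and its counts of lower genes can therefore rest on few cells. Pcna was at 38.3 and 86.2 CPM in fibroblast-gated, 14.9 and 62.1 CPM in tenocyte-gated and 47.2 and 76.0 CPM in joint lining-gated cells. Ccnb2, Cdk1 and Mcm5 were above 0 in at most 12 cells of any of these classes. Hmgb2, at 141 and 148 CPM over all the other joint classes, was at 146 and 43.2 CPM in tenocyte-gated, 202 and 313 CPM in marrow stromal-gated and 111 and 160 CPM in osteoblast-gated cells. In these, 13 of 25 G2/M and 2 of 23 S genes were at least 2-fold lower and 1 and 0 higher, against 4.94% and 4.85% of all genes tested. Of those that passed the level minimum 8 of 16 G2/M and 2 of 22 S genes were lower, and 5 of the G2/M genes passed through the control alone. In fibroblast-gated cells 18 G2/M and 3 S genes were at least 2-fold lower and 1 and 2 higher, against a background of 14% and 8.52%. Of those that passed the minimum 11 of 15 G2/M and 1 of 16 S genes were lower, but 11 of these G2/M genes passed through the control alone and so had to be lower.

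Control erythroblasts, cells with globin and at least 3 erythroid markers, held both groups at far higher levels than the other control cells. All 1725 were G2/M-positive (100%, 99.8 to 100%), against 322 of the 1176 other control cells without globin and outside the erythroid gates (27.4%, 24.8 to 30.0%). At 2000 UMIs the counts were 1634 of 1640 (99.6%) and 64 of 974 (6.57%). The erythroblasts held a median of 14 G2/M genes per cell at a median depth of 6055 UMIs, against 2 genes and 4583 UMIs in the other control cells. All 23 S and all 25 G2/M genes were at least 2-fold higher in erythroblasts, against 23.7% of all genes tested. The median log2 ratio was 4.08 for S and 3.28 for G2/M genes, the lowest were Nasp (2.55) and Cks1b (2.68) and the highest Rrm2 (4.87) and Mki67 (5.03). Mki67 was at 3271 CPM in erythroblasts and 99.4 CPM in the others, Hmgb2 at 4218 and 231 CPM. The Stat3 deleted library held 23 erythroblasts, of which 20 were G2/M-positive, with Mki67 at 2392 CPM.

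Transcripts of erythroid markers were measurable in control cells that carried no globin value. In control Sox9+Col2a1+ cells the 8 erythroid markers other than globin summed to 20.5 CPM, none of them at 0, and at least 1 was above 0 in 83 of 501 cells (16.6%). In the Stat3 deleted cells they summed to 1.93 CPM, 4 were at 0, and 7 of 332 cells (2.11%) held one. Set against the control erythroblast level, the markers stood between 0.349% and 4.21% in control Sox9+Col2a1+ cells. Mki67 stood at 1.56% and Top2a at 3.29%, inside that range, and Cenpf at 10.3%, Nasp at 15.7% and Pcna at 11.1%, above it. In control fibroblast-gated cells the markers summed to 40.7 CPM, against 1.58 CPM in the Stat3 deleted cells, and stood between 0.962% and 7.17% of the erythroblast level. Mki67 (2.38%) and Top2a (2.91%) lay inside that range, and Cenpf (15.3%), Pcna (12.4%) and Nasp (22.2%) above it. The part of this RNA in the genotype differences of Mki67 and Top2a in the fibroblast gate was not tested.

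**Figure D5:**
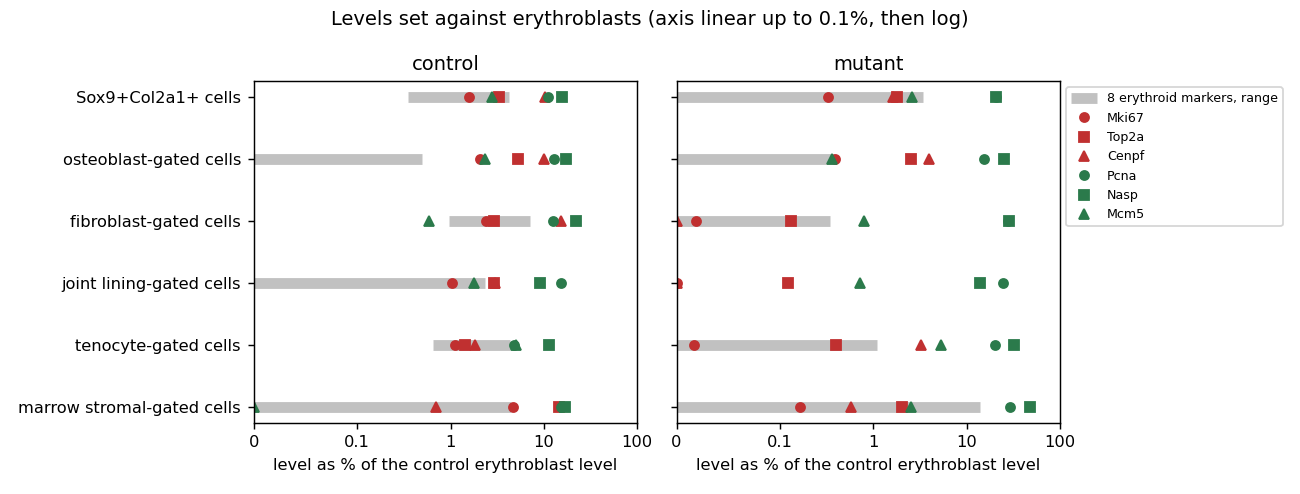
Level of 6 members in each class as a percent of their level in control erythroblasts (horizontal axis, linear to 0.1% and logarithmic above), for the control (left) and the Stat3 deleted library (right, labelled mutant). Grey bars are the range of the 8 erythroid markers, which lay at 0 throughout the joint lining-gated Stat3 deleted cells. In control cells Mki67 lay inside the grey bar in Sox9+Col2a1+, fibroblast-gated, joint lining-gated and tenocyte-gated cells, and Nasp lay above it in every class.

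The G2/M difference in Sox9+Col2a1+ cells was measured again without cells that held an erythroid marker, and after subtraction of an erythroblast profile. Leaving out such cells does not set erythroblast RNA itself aside. Control erythroblasts held 12070 CPM of the 25 G2/M genes but 2281 CPM of the 8 markers. A cell can therefore hold RNA of the former without a value for the latter. Among cells with none of the 8 erythroid markers, 112 of 418 control and 59 of 325 Stat3 deleted cells were G2/M-positive, a difference of -8.64 points (-14.5 to -2.57), and at 2000 UMIs 30 of 391 and 7 of 294 were, a difference of -5.29 points (-8.60 to -1.97). Cells with 10 or more G2/M genes then numbered 15 and 5. In all, 6 of the 21 control cells with 10 or more held an erythroid marker and 2 of them held at least 3. When the control erythroblast profile was subtracted from the control levels, scaled to the sum of the erythroid markers, 12 members, all of them G2/M genes, were at least 2-fold lower rather than 16, and 4 S genes were at least 2-fold higher where none had been, Cdc45 (1.28), Mcm6 (1.11), Hells (1.02) and Fen1 (1.01). Cdc45, Hells and Fen1 had means under 5 CPM as deposited, and Cdc45 was left with 0.0749 CPM in the control. Only control levels were reduced, so every ratio could only rise. The share of all genes past 2-fold after subtraction is not given. After subtraction the G2/M median was -0.97, and the S median turned from -0.43 to 0.12. Mki67 was left with 21.8 CPM in the control against 10.7 CPM (-0.97), and Top2a came to a log2 ratio of -0.38. Cenpf (-2.33), Tpx2 (-1.95), Ccnb2 (-1.55) and Cdc20 (-1.45) stayed at least 2-fold lower. These values rest on a scale of 0.898% of the erythroblast level, while the single markers stood between 0.349% and 4.21%. Mki67 (1.56%) and Top2a (3.29%) lay inside that range, so at higher scales within it nothing of them would be left in the control.

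Cells that passed no gate were few and shallow, with median depths of 1148 (control) and 1093 UMIs (Stat3 deleted), but often held G2/M genes. They were G2/M-positive in 49 of 114 control and 59 of 272 Stat3 deleted cells, with Mki67 at 1108 and 414 CPM. In the G2/M-positive ones the 8 erythroid markers summed to 440 and 515 CPM, and the 8 markers of early blood progenitors to 159 and 247 CPM, with 5 of these 8 at 0 in both libraries. Joint markers were present too. Those of chondrocytes summed to 1034 CPM in 36 of 49 control cells and 414 CPM in 33 of 59 Stat3 deleted cells, those of tenocytes to 913 and 87.8 CPM, those of the joint lining to 492 and 158 CPM and those of osteoblasts to 435 and 515 CPM. The part of any of these RNAs in the G2/M counts of all cells outside the erythroid gates, 322 of 1176 and 206 of 1220, was not tested.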

How the data were processed

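Single-cell 3′ RNA-seq of sorted knee joint cells was deposited as 1 table per genotype. The authors, per the methods, trimmed reads and aligned them to mm10 with STAR 2.7.3a in Partek, removed duplicate UMIs, counted on the Gencode annotation, chose cells by the knee of the barcode curve and then corrected for ambient RNA (SoupX). Each deposited gene value is the log2 of CPM + 1 in a cell. The deposited total per cell is an estimated count after ambient removal, the deposited mitochondrial share is a percent of it, and the number of expressed genes is a deposited score. Per-cell annotation text was used only to check which cells the authors selected, and 501 and 332 of these marked cells were the Sox9+Col2a1+ cells without globin.

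Estimated UMIs were recovered from value and total; 74.9% of control and 97.3% of Stat3 deleted values lay within 0.1 of a whole number, so no count model was used. Totals were 23576400 and 7452650 estimated UMIs, of which 3068820 and 3062810 were in Sox9+Col2a1+ cells, where 1 UMI was worth 0.326 CPM. Sums over cells gave CPM, 1 CPM was added before log2, and genes with a mean under 5 CPM were left out of the background. A class needed at least 3 of its 8 markers (7 were measured for tenocytes), the highest mean deciding, and a comparison at least 50 cells per library. Intervals are exact Clopper-Pearson for shares and Newcombe for differences, both at 95%. Thinning drew rounded UMIs with seed 1. Doublets were kept; Scrublet (scanpy 1.11.5) at an expected rate of 0.05 marked 74 control and 2 Stat3 deleted cells (0.149%), a rate too low to tell whether it worked there. Cells above 5% mitochondrial (694 and 492) were kept. The ratio and thinning steps were tested on simulated data.

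Members and all lists were chosen with earlier results of these data known. Named genes were, in each role, the 2 members with the highest mean CPM in Sox9+Col2a1+ cells; Mki67, Top2a, Cdk1, Ccnb2, Pcna and Mcm5 in every class; the 5 members in most and 3 in fewest G2/M-positive cells; the 3 highest and 3 lowest ratios; and Stat3, Sox9 and Col2a1. Others were chosen after their values were seen.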

Additional observations from a re-analysis of the deposited data

Results flagged for a closer look

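Marrow stromal-gated cells went against the Sox9+Col2a1+ cells: their share with at least 3 G2/M genes was higher in the Stat3 deleted library by 8.04 points (28 of 109 against 9 of 51 cells), where that of Sox9+Col2a1+ cells was lower. The interval of -6.52 to 20.1 points includes 0. With at least 0.5 UMI required the difference was 17.8 points (4 of 51 and 28 of 109 cells, 4.94 to 28.0), among cells of at most 5% mitochondrial reads 19.1 points (2.13 to 33.9), with up to 2 globin UMIs allowed 13.0 points (3.09 to 22.9) and with globin up to 1% of UMIs 11.0 points (0.969 to 21.2), each with an interval above 0. Whether the marrow stromal and Sox9+Col2a1+ differences depart from each other was not tested. Of 16 other settings 5 reversed the marrow stromal difference. It was -2.56 points at 2000 UMIs per cell and -3.27 points at 1000 UMIs. Without the 6 broadly expressed genes it was -1.96 points, at 1 of 51 control and 0 of 109 Stat3 deleted cells. The intervals of these 3 values include 0.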

How the results depend on the processing

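No paired analysis was possible because each genotype was 1 library, which also left no replicate to leave out. All differences are Stat3 deleted minus control, in points, in the order Sox9+Col2a1+, chondrocyte-gated, other joint and all cells outside the erythroid gates; where the direction or size changed, the cause was not tested. Needing 2 G2/M genes gave -16.8, -22.7, -14.0 and -20.8. Requiring 0.5 UMI gave -0.69, -4.92, 1.39 and -3.43, S genes in place of G2/M genes 2.85, -1.80, 7.38 and -1.23. Chosen after seeing the data, 10 or more G2/M genes gave -2.69, -2.58, -1.26 and -1.91, and without cells with an erythroid marker -2.05, -2.06, -1.18 and -1.71. S genes at 2000 UMIs gave -0.38 there and -0.71 in other joint cells. Needing 5 genes gave -4.81 in chondrocyte-gated and -3.17 in all cells, leaving out the 6 broadly expressed genes -7.74 and -5.77, thinning to 1000 UMIs -3.86 and -1.06 and to 2000 UMIs -5.68 and -3.28. With 0.5 UMI required the interval in Sox9+Col2a1+ cells included 0 for 3 of all 25 G2/M genes. It lay under 0 at -6.08 (-9.01 to -3.05) without the 6 broadly expressed genes (chosen after seeing the data) and at 2000 UMIs, whereas 10 genes of at least 0.5 UMI gave -2.09 (-4.28 to 0.28).

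Single classes changed sign as follows. Osteoblast-gated cells came to 0.045 at up to 5% mitochondrial, fibroblast-gated to 13.5 (S genes) and 1.25 (0.5 UMI), joint lining-gated to 2.97 and 2.05, and tenocyte-gated to 8.47 (S genes) and 1.69 (1000 UMIs). Marrow stromal-gated cells came to -1.96 without the broad genes and with 10 genes, -2.33 with 10 genes and no erythroid marker, -3.27 at 1000 UMIs and -2.56 at 2000 UMIs, and were higher with an interval above 0 at 17.8 (0.5 UMI), 19.1 (up to 5% mitochondrial), 13.0 (up to 2 globin UMIs) and 11.0 (globin up to 1%). The erythroblast contrast ranged through 47.2 (2 genes), 65.9 (S genes), 67.4 (globin up to 1% of UMIs), 79.8 (0.5 UMI), 80.6 (10 genes), 89.3 (no broad genes), 89.4 (1000 UMIs), 90.9 (5 genes) and 93.1 (2000 UMIs).

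Of levels, the S median became 0.60 over members of at least 20 CPM, 0.12 after subtraction of the erythroblast profile and -1.09 with globin-positive cells included. At 2000 UMIs the S median was -0.85, the G2/M median -1.18 and 24 members were at least 2-fold lower. The G2/M median became -0.46 with 10 CPM added and -1.94 with globin-positive cells. Members at least 2-fold lower numbered 16 and became 3 with 10 CPM added, 1 over members of at least 20 CPM, where few were tested, and 31 with globin-positive cells. The share of all genes past 2-fold is not given for these settings or for 2000 UMIs, so the counts have no background beside them. One library per genotype and few G2/M-rich cells limit the rest.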
